A study of Mus musculus with 9 samples.

Results

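Collagen chains were followed through a knockdown of Eya3 in cultured mouse mammary tumour cells. Members were all gene symbols of the count table written as Col, a number, a and a number. The rule matched 44 symbols, of which Col9a1 and Col19a1 had no count in any library, and the other 42, among 55418 symbols in all, are described here by class. The cells were 66cl4, a murine line of triple negative breast cancer. They were kept under puromycin after transduction with a short hairpin RNA (shRNA, from which cells make a small RNA directed at a matching messenger). The control group, SCR, carried a scrambled hairpin (shScramble), and the groups shEya3 KD1 and shEya3 KD2 carried different hairpins against Eya3. Each of the 3 groups had 3 biological replicates. The labels do not say whether a group was a pool of transduced cells or a clone, nor how the replicate cultures were separated, so p-values measure only the spread between samples, which may be technical. The cells grew without a host, and SCR serves as control for both hairpins, so the comparisons of the hairpins with SCR are not independent.

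A collagen molecule is a triple helix of alpha chains, and it forms only where glycine recurs at regular steps along each chain, since no larger residue fits the helix axis. Fibrillar collagens (types I, II, III, V and XI among others) assemble into the banded fibrils of connective tissue, type IV forms the sheet of the basement membrane, and type VI forms beaded filaments. Other classes decorate fibrils (the FACIT collagens), anchor the basement membrane to the tissue below it (type VII), span the cell membrane, or make short-chain networks (types VIII and X). Many chains only assemble with set partners, such as Col1a1 with Col1a2 or Col4a1 with Col4a2, and tumour cells of the breast meet collagen both as a barrier and as a track along which they move.

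The coding sequences show how differently the classes use this repeat. Stretches of 12 consecutive triplets are printed for a fibrillar chain, a basement membrane chain and a beaded filament chain on which later results turn. They come from the GENCODE M21 transcript with the longest coding sequence, read 5′ to 3′. Capitals mark the glycine codon that opens each triplet. The last codon printed for Col4a5 is a further glycine codon, left in lower case.
Col1a2: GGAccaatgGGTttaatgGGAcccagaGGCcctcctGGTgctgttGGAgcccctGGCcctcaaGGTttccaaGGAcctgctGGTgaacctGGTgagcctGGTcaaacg
Col4a5: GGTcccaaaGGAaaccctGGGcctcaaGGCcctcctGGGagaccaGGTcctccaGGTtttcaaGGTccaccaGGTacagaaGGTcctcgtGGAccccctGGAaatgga
Col6a5: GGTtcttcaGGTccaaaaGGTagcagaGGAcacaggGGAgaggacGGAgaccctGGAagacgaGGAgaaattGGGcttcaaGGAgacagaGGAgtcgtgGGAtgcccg
The Col1a2 stretch covers codons 97 to 132, the Col4a5 stretch codons 1249 to 1284 and the Col6a5 stretch codons 1442 to 1477, counted from the start codon. In Col1a2 the repeat ran without a break for 339 triplets. In the other major fibrillar chains it ran for 337 to 344, and in Col24a1 and Col27a1 for 216 and 217. Col4a5 had 444 triplets in 23 runs of at least 3 triplets, the longest of 42, which is the interrupted helix typical of type IV. Col6a5 had 107 triplets in 6 runs, and these took up 12.2% of its 2640 codons against 77.2% of the 1372 codons of Col1a2.

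Library totals ran from 27758862 counts (shEya3 KD2 replicate 2) to 52691960 (shEya3 KD2 replicate 1), and levels are given as CPM, read counts scaled to a common library size with TMM factors. Eya3, a transcriptional coactivator and phosphatase, stood at 68.1, 79.0 and 71.6 CPM in the SCR libraries, 24.9, 21.5 and 22.9 in shEya3 KD1 and 38.6, 39.8 and 34.1 in shEya3 KD2. The groups did not overlap, and the means with the hairpins were 31.7% and 51.5% of the SCR mean. The labelled epithelial tumour cell was only partly matched by its markers: Krt8 ranged from 655 to 1369.6 CPM over the libraries, whereas Epcam had no count in any library and Cdh1 did not exceed 0.258 CPM. The summed level of the 7 epithelial markers, nearly all of it Krt8, did not overlap between groups, at 657 to 697 CPM in SCR, 1223 to 1371 in shEya3 KD1 and 766 to 870 in shEya3 KD2, the same order of groups as for Col4a5 and Col8a1 below. Krt8 rose with either hairpin (0.95 and 0.22 on the log2 scale), as did Krt18 (4.95 and 6.39), Krt5 rose with shEya3 KD1, Krt19 rose with shEya3 KD2, and Krt14 fell with shEya3 KD1 and rose with shEya3 KD2. The part of these markers in the values of the chains was not tested. Of 11 fibroblast markers, Fn1 and Pdgfra carried most of the summed level, which ranged over 452 to 586 CPM in SCR, 473 to 640 in shEya3 KD1 and 368 to 564 in shEya3 KD2. Thy1 had no count in any library, and Dcn and Lum stayed under 0.1 CPM. Within that list Pdgfrb (0.605, 11.8 and 2.77 CPM in SCR, shEya3 KD1 and shEya3 KD2) and Postn (0.169, 0.809 and 0.0287) differed between groups along with several chains below, and their part in those results was not tested.

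Summed over the 42 chains, the collagen level was 838, 1064 and 937 CPM in the SCR libraries, 1211, 1029.5 and 1044 in shEya3 KD1 and 1171, 1345 and 1037 in shEya3 KD2. The ranges overlapped in every pair of groups, so the sum did not separate knockdown from control. The ratios of means were 1.16 for shEya3 KD1 and 1.25 for shEya3 KD2 against SCR (exact permutation p = 0.3 and 0.2, two-sided, where 3 libraries against 3 cannot go below 0.1). Between the hairpins the ratio was 1.08 (exact permutation p = 0.6). In bulk RNA, a change in the number of cells that make a chain and a change in its RNA per cell cannot be told apart.

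Few chains made up the sum. The 8 with the highest CPM held 97.9% of collagen CPM in SCR, 94.9% in shEya3 KD1 and 99.0% in shEya3 KD2, and in each group these 8 were Col4a1, Col4a2, Col4a5, Col5a1, Col6a5, Col7a1, Col8a1 and Col18a1. Per kilobase of transcript, which allows genes to be compared, the order in SCR was Col4a1 (29.2 CPM per kb), Col8a1 (27.02), Col6a5 (26.7), Col18a1 (16.6), Col4a2 (13.6), Col5a1 (10.0), Col7a1 (9.99) and Col4a5 (3.86), followed by Col6a1 at 0.696. The first 3 of this order lay within their spread over libraries, as did Col18a1 with Col4a2 and Col5a1 with Col7a1. In shEya3 KD1 the order began with Col8a1 (50.0), Col4a1 (34.6) and Col4a5 (22.6), and Col6a5 had moved down to 6.99 CPM per kb. In shEya3 KD2 it began with Col8a1 (42.0), Col6a5 (36.7) and Col4a1 (33.6), where the range of Col6a5 overlapped both others and Col8a1 lay above Col4a1.

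The mix of classes differed between the groups. Beaded filament chains held 23.1% of collagen CPM in SCR, 5.96% in shEya3 KD1 and 25.0% in shEya3 KD2. Basement membrane chains held 32.3%, 44.3% and 31.9%, and the short-chain network 14.7%, 23.5% and 18.3%. The fibrillar share was 9.84%, 8.46% and 4.76%, and the multiplexin share 9.91%, 8.70% and 12.3%. These shares describe the libraries and were not tested as shares.

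**Figure D1:**
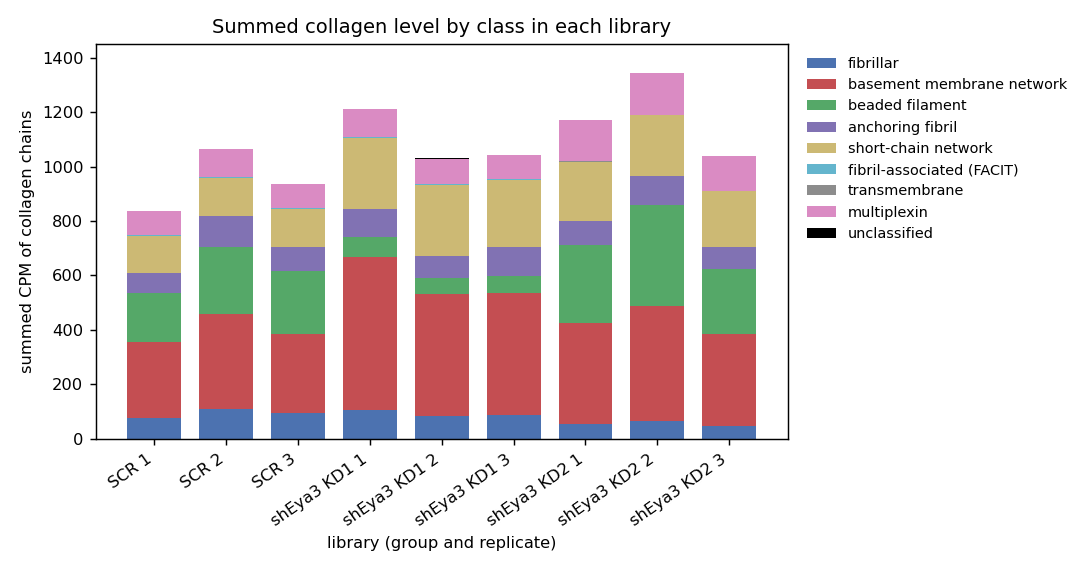
Stacked bars of summed CPM (y axis) by collagen class for each of the 9 libraries (x axis). The beaded filament segment is short in the 3 shEya3 KD1 libraries (59.8 to 74.8 CPM) and tall in the others (182 to 369.8 CPM), while the full bars overlap between groups.

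Of the 42 chains, 27 had enough counts to be tested among 15914 genes. With shEya3 KD1, 9 of these 27 chains rose and 11 fell, where 24.1% of all genes tested were called higher and 26.2% lower (edgeR quasi-likelihood test, Benjamini-Hochberg adjusted p under 0.05). With shEya3 KD2, 5 rose and 10 fell, beside 23.0% and 22.3% of all genes tested. The median log2 fold change of the 27 chains was 0.10 with shEya3 KD1 and -0.41 with shEya3 KD2, and that of all genes tested was 0.014 and -0.0044. These are descriptions of the chains that had counts enough, and no test compared the chains with other genes.

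**Figure D2:**
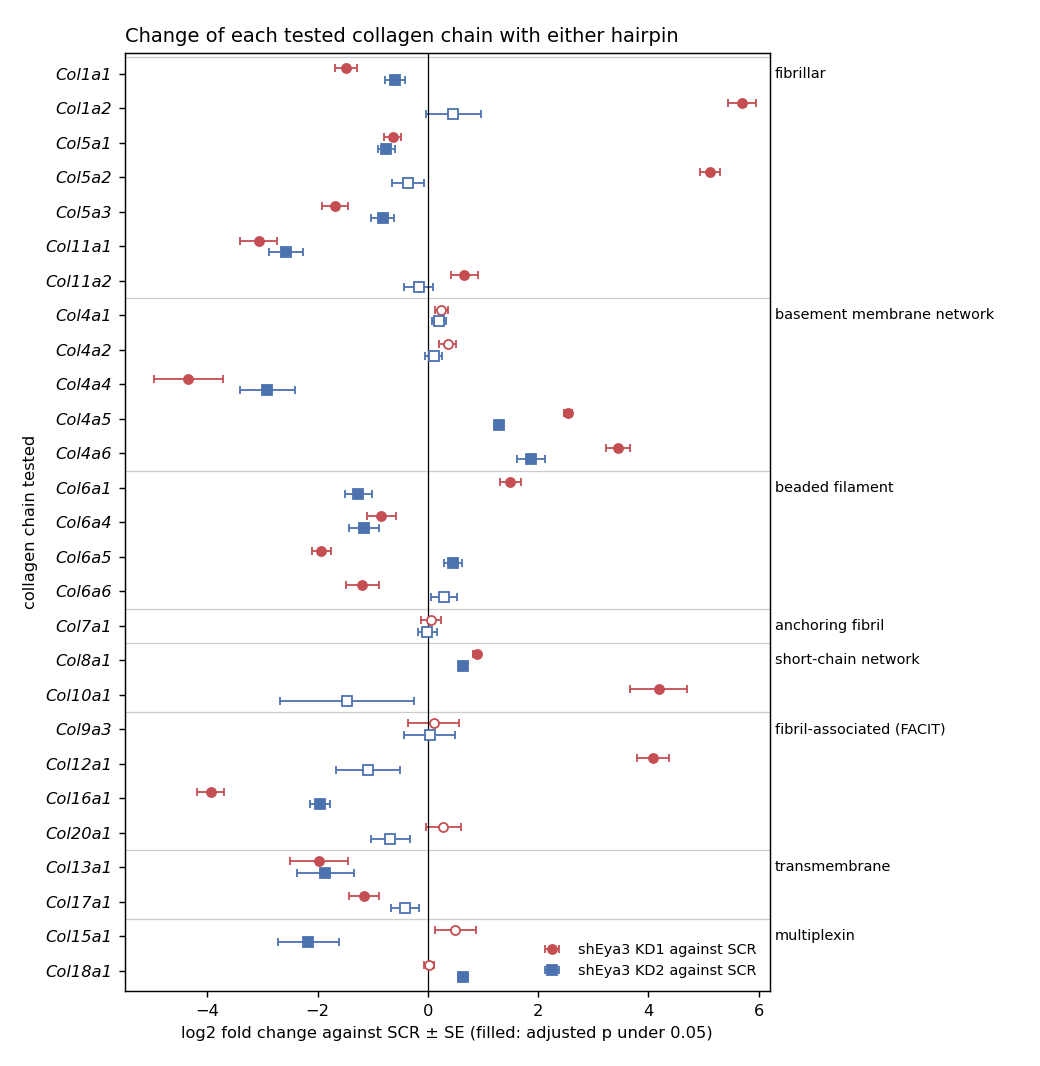
Log2 fold change against SCR with its SE (x axis) for the 27 tested chains, grouped by class (y axis), with circles for shEya3 KD1 and squares for shEya3 KD2, filled where the adjusted p is under 0.05. Col1a2, Col5a2, Col12a1 and Col10a1 lie above 4 with shEya3 KD1 and are open symbols with shEya3 KD2, and Col6a1 and Col6a5 carry filled symbols on opposite sides of 0.

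In the basement membrane class the X-linked pair Col4a5 and Col4a6 rose with either hairpin, the autosomal pair Col4a1 and Col4a2 did not pass the test, and Col4a4 fell. Col4a5, which joins Col4a3 and Col4a4, or Col4a6, in the basement membranes of selected tissues, measured 22.7, 25.1 and 25.0 CPM in SCR, 150.1, 139 and 136 in shEya3 KD1 and 57.1, 63.8 and 56.6 in shEya3 KD2. The 3 groups did not overlap, and shEya3 KD2 lay between the others. Its log2 fold change was 2.55 ± 0.075 (adjusted p = 8.6e-13) with shEya3 KD1 and 1.29 ± 0.074 (adjusted p = 5.74e-09) with shEya3 KD2, which are 5.85 and 2.44 times the SCR mean. Col4a6, its partner in smooth muscle and epithelial basement membranes, was far less abundant, at 0.297, 0.177 and 0.288 CPM in SCR, 2.87, 2.99 and 2.51 in shEya3 KD1 and 0.916, 1.11 and 0.826 in shEya3 KD2. It kept the same order of groups without overlap. The log2 fold change of Col4a6 was 3.46 ± 0.22 (adjusted p = 4.65e-09) with shEya3 KD1 and 1.88 ± 0.26 (adjusted p = 3.32e-05) with shEya3 KD2.

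Col4a5 (mm10 chrX:141475385-141689234, plus strand) and Col4a6 (chrX:141165403-141474076, minus strand) lie head to head with 1309 bp between their GENCODE M21 starts. Their promoters are shown because the genes rose together. Each run is the 250 bases before the RefSeq start on GRCm38.p6, written 5′ to 3′ on the gene's own strand, and capitals mark matches on either strand to the CCAAT box (CCAAT), the GC box (GGGCGG) or the TATA box (TATAAA).
Col4a5: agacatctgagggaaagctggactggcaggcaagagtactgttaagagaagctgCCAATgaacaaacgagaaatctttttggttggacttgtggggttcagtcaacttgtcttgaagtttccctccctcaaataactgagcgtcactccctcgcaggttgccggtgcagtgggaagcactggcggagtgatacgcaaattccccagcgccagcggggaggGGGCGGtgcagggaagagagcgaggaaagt
Col4a6: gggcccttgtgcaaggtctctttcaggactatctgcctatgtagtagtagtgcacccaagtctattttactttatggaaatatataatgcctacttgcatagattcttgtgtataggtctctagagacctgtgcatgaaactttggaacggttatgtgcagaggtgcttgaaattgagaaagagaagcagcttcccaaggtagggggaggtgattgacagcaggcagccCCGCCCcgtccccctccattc
The Col4a5 window is chrX:141475169-141475418 on the plus strand and the Col4a6 window chrX:141474077-141474326 on the minus strand. Col4a5 had a CCAAT match 196 bases and a GGGCGG match 30 bases before the RefSeq start. The GENCODE start of Col4a5 falls inside this window, ahead of its GGGCGG match. Col4a6 had only the reverse complement of GGGCGG, 21 bases before the RefSeq start. Although both genes rose, Col4a5 remained the main transcript of the pair, since its level per kb was 107 ± 37.2 (SD, n = 3) times that of Col4a6 in SCR, 54.0 ± 4.33 in shEya3 KD1 and 66.5 ± 5.84 in shEya3 KD2.

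Col4a1, which with Col4a2 makes the most common type IV molecule, was at 178, 221 and 181 CPM in SCR, 267, 209.7 and 210.2 in shEya3 KD1 and 220.5, 252 and 195 in shEya3 KD2. Col4a2 was at 76.6, 102 and 83.2 CPM, 139.5, 95.6 and 102 and 92.7, 105 and 84.8 in the same order. For each gene the libraries of the groups overlapped. The log2 fold changes of Col4a1 were 0.24 ± 0.12 (adjusted p = 0.113) and 0.20 ± 0.12 (adjusted p = 0.195), and those of Col4a2 0.36 ± 0.15 (adjusted p = 0.0754) and 0.11 ± 0.15 (adjusted p = 0.613). With shEya3 KD1 both passed the threshold when SCR replicate 2, their highest SCR library, was left out (0.34, adjusted p = 0.0375, and 0.48, adjusted p = 0.0249), and Col4a2 also without shEya3 KD1 replicate 2 (0.46, adjusted p = 0.0296) or with DESeq2 (0.36, adjusted p = 0.0368). Col4a1 passed it when only the groups compared were fitted (0.25, adjusted p = 0.0482), and both did without a filter on low counts, as did Col4a1 with shEya3 KD2 (0.21, adjusted p = 0.0217). These genes are head to head on chr8 with starts 21 bp apart, and their ratio per kb was the steadiest of the pairs examined: 2.16 ± 0.0833 in SCR, 2.01 ± 0.136 in shEya3 KD1 and 2.30 ± 0.0510 in shEya3 KD2 (SD, n = 3). Against this, Col4a5 per kb was 0.133 ± 0.0131 of Col4a1 in SCR, 0.657 ± 0.0573 in shEya3 KD1 and 0.281 ± 0.0208 in shEya3 KD2, and no library of one group reached another.

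Col4a4, which with Col4a3 and Col4a5 forms the collagen of the kidney filter, was low. It had 0.554, 0.688 and 0.481 CPM in SCR, 0.0749, 0 and 0 in shEya3 KD1 and 0.117, 0.0738 and 0.0236 in shEya3 KD2. Every hairpin library lay below every SCR library. Over the groups these were 83, 3 and 9 counts, so the level in shEya3 KD1 was 22.7 times lower than in SCR with a 95% counting interval of 7.51 to 112 (adjusted p = 3.3e-05), and the log2 fold change with shEya3 KD2 was -2.91 ± 0.50 (adjusted p = 0.000263). All 3 shEya3 KD1 counts came from replicate 1. Col4a3, head to head with Col4a4 on chr1 with starts 72 bp apart, had 15, 6 and 3 counts and was too low to test.

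**Figure D3:**
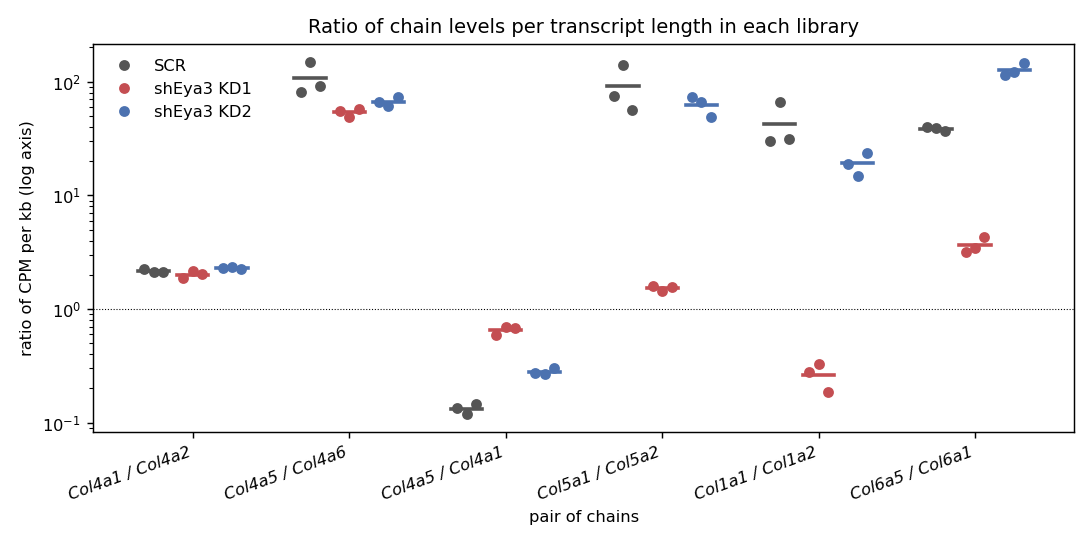
Ratio of the levels of 2 chains per kb of transcript (y axis, log scale) in each library (points) with the group mean (bars), for 6 pairs of chains (x axis). Col4a1 to Col4a2 stays between 1.87 and 2.34 in all 9 libraries, while Col5a1 to Col5a2 and Col1a1 to Col1a2 are much lower in the shEya3 KD1 libraries than in the others.

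Among the 7 fibrillar chains tested, shEya3 KD1 split partners of the same collagen type: alpha 2 chains of types I and V rose while the alpha 1 chains fell. Col1a2, which pairs with Col1a1 in the main collagen of bone, skin and stroma, was nearly silent in SCR at 0.0989, 0.0590 and 0.0961 CPM. It reached 4.47, 4.05 and 5.07 CPM in shEya3 KD1 and was 0.117, 0.185 and 0.0708 in shEya3 KD2. All shEya3 KD1 libraries stood above all others, and SCR overlapped shEya3 KD2. The log2 fold change was 5.70 ± 0.25 (adjusted p = 7.02e-11) with shEya3 KD1 and 0.46 ± 0.50 (adjusted p = 0.52) with shEya3 KD2, and the SCR group held 12 counts of Col1a2 in all. Col1a1 measured 3.28, 4.34 and 3.32 CPM in SCR, 1.37, 1.47 and 1.04 in shEya3 KD1 and 2.46, 3.03 and 1.86 in shEya3 KD2, without overlap between groups. It fell by 1.48 ± 0.20 (adjusted p = 1.42e-05) with shEya3 KD1 and by 0.60 ± 0.18 (adjusted p = 0.0135) with shEya3 KD2 on the log2 scale. The second of these calls was lost without SCR replicate 2 (-0.46, adjusted p = 0.0740) or without shEya3 KD2 replicate 3 (-0.44, adjusted p = 0.0504). Per kb, Col1a1 was 42.5 ± 20.7 times Col1a2 in SCR, 0.263 ± 0.0730 in shEya3 KD1 and 19.2 ± 4.48 in shEya3 KD2 (SD, n = 3), so the more abundant chain of the pair was the other one in shEya3 KD1. The SCR ratio rests on the 12 counts of Col1a2.

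The promoter of Col1a2 (chr6:4505368-4505617, plus strand, GRCm38.p6) is shown as that of the tested chain with the largest rise. Capitals mark the same motifs as above.
Col1a2: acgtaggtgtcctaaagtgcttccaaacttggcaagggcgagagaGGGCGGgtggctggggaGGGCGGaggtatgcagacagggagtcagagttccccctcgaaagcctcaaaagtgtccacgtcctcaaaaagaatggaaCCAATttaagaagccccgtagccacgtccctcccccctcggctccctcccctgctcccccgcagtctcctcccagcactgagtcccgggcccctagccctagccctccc
It had GGGCGG matches 205 and 188 bases and a CCAAT match 109 bases before the RefSeq start. GENCODE M21 starts Col1a2 at chr6:4504814, so by that annotation the whole window lies inside the gene.

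Col5a2 (mm10 chr1:45374321-45503282, minus strand), whose product joins Col5a1 in the type V heterotrimer that helps start type I fibrils, had 0.732, 0.550 and 1.18 CPM in SCR, 32.0, 26.5 and 25.2 in shEya3 KD1 and 0.526, 0.702 and 0.684 in shEya3 KD2. Here too shEya3 KD1 stood apart while SCR and shEya3 KD2 overlapped. The log2 fold change was 5.12 ± 0.18 (adjusted p = 1.93e-11) with shEya3 KD1 and -0.36 ± 0.28 (adjusted p = 0.326) with shEya3 KD2. Col5a1 was abundant in all groups, at 69.8, 98.6 and 84.2 CPM in SCR, 64.3, 48.2 and 49.9 in shEya3 KD1 and 49.3, 58.4 and 42.4 in shEya3 KD2. Every library of either hairpin lay below every SCR library, and the hairpins overlapped each other. Col5a1 fell by 0.64 ± 0.16 (adjusted p = 0.00646) and by 0.75 ± 0.16 (adjusted p = 0.00306) on the log2 scale. The ratio of Col5a1 to Col5a2 per kb was 90.9 ± 44.6 in SCR, 1.52 ± 0.0826 in shEya3 KD1 and 62.7 ± 12.7 in shEya3 KD2 (SD, n = 3).

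Col5a3, a less widespread chain of type V, was at 1.09, 1.22 and 1.08 CPM in SCR, 0.374, 0.257 and 0.432 in shEya3 KD1 and 0.663, 0.702 and 0.566 in shEya3 KD2. The groups did not overlap. It fell by 1.68 ± 0.23 (adjusted p = 2.45e-05) with shEya3 KD1 and by 0.82 ± 0.21 (adjusted p = 0.00507) with shEya3 KD2. The type XI chains, which nucleate fibrils in cartilage, went apart: Col11a1 had 0.653, 0.845 and 0.937 CPM in SCR, 0.0749, 0.0936 and 0.115 in shEya3 KD1 and 0.136, 0.148 and 0.118 in shEya3 KD2. Its log2 fold change was -3.07 ± 0.33 (adjusted p = 1.87e-06) with shEya3 KD1 and -2.58 ± 0.31 (adjusted p = 1.02e-05) with shEya3 KD2, with no overlap between SCR and either hairpin. Col11a2 measured 1.92, 3.73 and 2.48 CPM in SCR, 4.64, 3.58 and 4.72 in shEya3 KD1 and 1.93, 3.47 and 2.12 in shEya3 KD2, and each hairpin group overlapped SCR. Its log2 fold change of 0.66 ± 0.25 (adjusted p = 0.044) with shEya3 KD1 was not past the threshold without SCR replicate 1 or 3, shEya3 KD1 replicate 1 or 3, or shEya3 KD2 replicate 3 (0.46 to 0.66, adjusted p = 0.0549 to 0.142), and with shEya3 KD2 it was -0.17 ± 0.27 (adjusted p = 0.639). Sox9, a chondrocyte marker that is known to drive type XI genes in cartilage, was at 5.71, 16.6 and 5.36 CPM in SCR, shEya3 KD1 and shEya3 KD2, and its part in the Col11a2 values was not tested. The other chondrocyte markers tested went the other way with shEya3 KD1: Acan had log2 fold changes of -2.72 (adjusted p = 0.000319) and -2.24 (adjusted p = 0.00116), and Comp of -1.49 (adjusted p = 0.000533) and -1.51 (adjusted p = 0.000679), with shEya3 KD1 and shEya3 KD2. Col2a1 and Col3a1, the main fibrillar chains of cartilage and of elastic tissues, had at most 12 and 5 counts in a group. Col24a1 had 5, 23 and 4 counts and Col27a1 2, 0 and 0, and neither was tested.

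**Figure D4:**
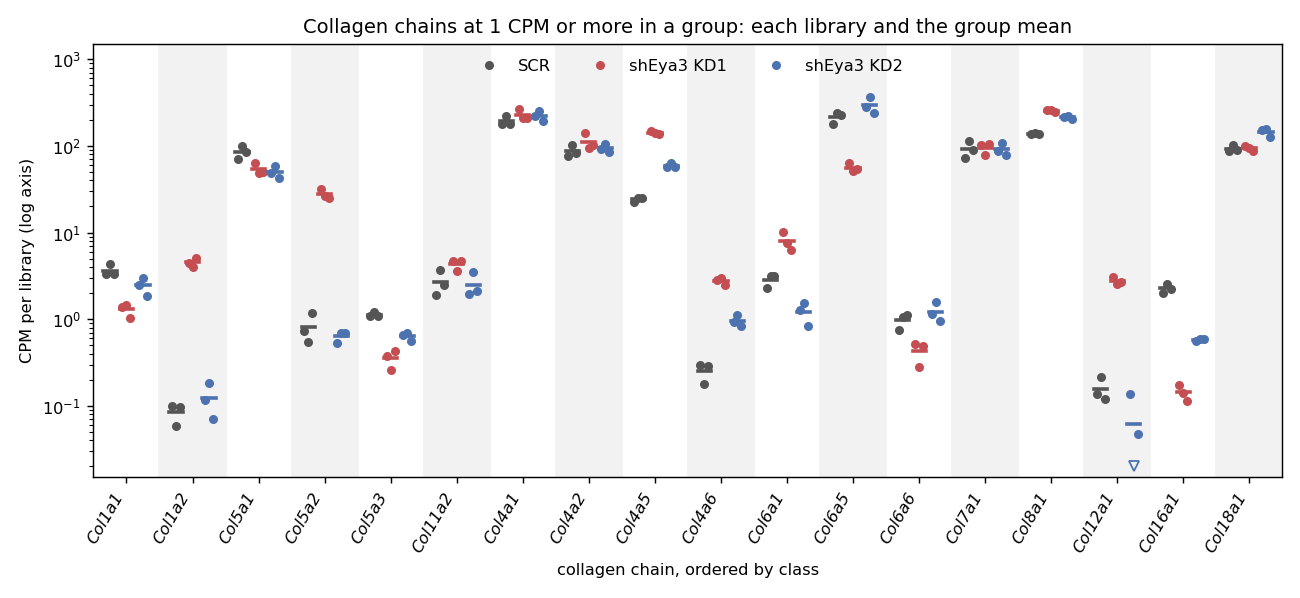
CPM (y axis, log scale) of the 18 chains with a group mean of at least 1 CPM, in each library (points) and as group means (bars), with an open triangle for a library without counts. Col1a2, Col5a2 and Col12a1 are high in the 3 shEya3 KD1 libraries alone, and Col6a5 is low there.

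Of the 4 beaded filament chains tested, Col6a1 and Col6a5 were called in opposite directions with the hairpins, Col6a4 fell with both, and Col6a6 was called with shEya3 KD1 but not with shEya3 KD2. Col6a1 (mm10 chr10:76708792-76726168, minus strand), a core chain of the type VI filament, was at 2.30, 3.14 and 3.12 CPM in SCR, 10.1, 7.58 and 6.37 in shEya3 KD1 and 1.27, 1.55 and 0.826 in shEya3 KD2. All shEya3 KD1 libraries lay above SCR and all shEya3 KD2 libraries below it. The log2 fold change of Col6a1 was 1.50 ± 0.19 (adjusted p = 2.52e-05) with shEya3 KD1 and -1.26 ± 0.24 (adjusted p = 0.000975) with shEya3 KD2. Col6a5, a long chain that can take the place of Col6a3 in the filament, was the most abundant of the class at 178, 239 and 226 CPM in SCR. It was 63.6, 51.4 and 53.8 CPM in shEya3 KD1 and 282, 366 and 237 in shEya3 KD2. The shEya3 KD1 libraries lay far below the rest, and shEya3 KD2 overlapped SCR by its replicate 3. Col6a5 fell by 1.93 ± 0.17 (adjusted p = 4.17e-06) with shEya3 KD1 and its log2 fold change with shEya3 KD2 was 0.46 ± 0.16 (adjusted p = 0.0399). That second call was lost without any of SCR replicates 1 and 3, shEya3 KD1 replicates 1 and 3, and shEya3 KD2 replicates 1 and 2 (adjusted p = 0.0525 to 0.122) and in a fit of only the groups compared (adjusted p = 0.0571), and the value was 0.28 without shEya3 KD2 replicate 2.

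The promoter of Col6a5 (chr9:105960644-105960893, minus strand, GRCm38.p6) is given as that of the chain with the largest change in CPM.
Col6a5: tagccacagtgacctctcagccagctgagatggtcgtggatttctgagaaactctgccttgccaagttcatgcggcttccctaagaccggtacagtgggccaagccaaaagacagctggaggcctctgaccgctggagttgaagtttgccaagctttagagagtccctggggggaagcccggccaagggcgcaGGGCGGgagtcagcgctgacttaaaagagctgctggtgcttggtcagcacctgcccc
Capitals mark its only match, GGGCGG at 57 bases before the RefSeq start.

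Col6a5 lies in a cluster on chr9 with Col6a6 and Col6a4, all on the same strand, with 132483 and 136140 bp between neighbouring starts. Col6a6, a close relative, had 0.752, 1.06 and 1.13 CPM in SCR, 0.524, 0.281 and 0.490 in shEya3 KD1 and 1.15, 1.59 and 0.944 in shEya3 KD2. Like Col6a5 it was below SCR in each shEya3 KD1 library and overlapped SCR with shEya3 KD2. Its log2 fold change was -1.19 ± 0.29 (adjusted p = 0.00319) with shEya3 KD1 and 0.29 ± 0.24 (adjusted p = 0.356) with shEya3 KD2. Col6a4 had 0.890, 0.983 and 0.889 CPM in SCR, 0.449, 0.468 and 0.634 in shEya3 KD1 and 0.409, 0.628 and 0.260 in shEya3 KD2, so it was below SCR in every hairpin library. It fell by 0.84 ± 0.26 (adjusted p = 0.0143) and by 1.16 ± 0.27 (adjusted p = 0.00296), the former call being lost without shEya3 KD1 replicate 1 (-0.76, adjusted p = 0.0543) or replicate 2 (-0.78, adjusted p = 0.0525). Col6a1 is not in that cluster but next to Col6a2 on chr10, and the second core chain was scarce: Col6a2 had 10, 7 and 0 counts in SCR, shEya3 KD1 and shEya3 KD2. Col6a3, the third, had 2, 3 and 0. The absence of shEya3 KD2 counts allows up to 3 counts, or 0.0248 CPM, over the group. Col6a5 per kb was 38.4 ± 1.35 times Col6a1 in SCR, 3.65 ± 0.577 in shEya3 KD1 and 127 ± 17.4 in shEya3 KD2 (SD, n = 3), with no overlap between groups.

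Col8a1, a short chain made by endothelial and smooth muscle cells that forms hexagonal networks, rose with either hairpin. It had 137, 139 and 137 CPM in SCR, 259.8, 259.8 and 246 in shEya3 KD1 and 217, 222 and 205 in shEya3 KD2. The spread within groups was small and the groups did not overlap. The log2 fold change was 0.89 ± 0.061 (adjusted p = 1.12e-08) with shEya3 KD1 and 0.64 ± 0.06 (adjusted p = 9.95e-07) with shEya3 KD2. Its partner Col8a2 had 4, 2 and 2 counts. Col10a1, the related chain of growth plate cartilage, had 4, 66 and 1 counts in SCR, shEya3 KD1 and shEya3 KD2. Its level with shEya3 KD1 was above every other library (0.524, 0.585 and 0.576 CPM), with a log2 fold change of 4.19 ± 0.51 (adjusted p = 6.76e-06). Col10a1 lies within Nt5dc1 on the opposite strand, which had 7329 counts over the 9 libraries, and the strand used in counting is not given.

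Col7a1, the anchoring fibril chain below the epidermis, had 71.6, 113 and 90.8 CPM in SCR, 102, 78.8 and 106 in shEya3 KD1 and 88.3, 107 and 79.0 in shEya3 KD2. The ranges of all groups overlapped. Its log2 fold changes were 0.06 ± 0.18 (adjusted p = 0.812) and -0.01 ± 0.18 (adjusted p = 0.978). Col18a1, a basement membrane collagen whose end fragment is endostatin, was at 87.8, 102 and 89.8 CPM in SCR, 101, 94.4 and 88.4 in shEya3 KD1 and 152, 155 and 126 in shEya3 KD2. Only the shEya3 KD2 libraries stood apart, above all others. The log2 fold change was 0.02 ± 0.087 (adjusted p = 0.847) with shEya3 KD1 and 0.64 ± 0.087 (adjusted p = 3.62e-05) with shEya3 KD2. Col18a1 overlaps Slc19a1 on the opposite strand (26357 counts over all libraries), so reads in the overlap may belong to either. Col15a1, the other multiplexin, had 0.336, 0.472 and 0.216 CPM in SCR, 0.649, 0.491 and 0.317 in shEya3 KD1 and 0.0195, 0.111 and 0.118 in shEya3 KD2, and was lowest in shEya3 KD2, without overlap with SCR. Its log2 fold change was 0.50 ± 0.37 (adjusted p = 0.287) with shEya3 KD1, and it fell by 2.17 ± 0.55 (adjusted p = 0.00484) with shEya3 KD2.

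Of the FACIT chains, Col12a1 and Col16a1 moved most. Col12a1, which coats type I fibrils in tendon and stroma, had 0.139, 0.216 and 0.120 CPM in SCR, 3.07, 2.53 and 2.71 in shEya3 KD1 and 0.136, 0 and 0.0472 in shEya3 KD2. The shEya3 KD1 libraries were far above the others, which overlapped. Its log2 fold change was 4.08 ± 0.29 (adjusted p = 2.15e-08) with shEya3 KD1 and -1.09 ± 0.58 (adjusted p = 0.145) with shEya3 KD2. The latter was -2.37 (adjusted p = 0.0281) without shEya3 KD2 replicate 1, which held most of the group's 9 counts. Col16a1, a fibril-associated chain that also binds integrins, had 2.02, 2.52 and 2.26 CPM in SCR, 0.175, 0.140 and 0.115 in shEya3 KD1 and 0.565, 0.591 and 0.590 in shEya3 KD2. The groups did not overlap, with shEya3 KD1 the lowest. Col16a1 fell by 3.94 ± 0.24 (adjusted p = 2.95e-09) and by 1.96 ± 0.18 (adjusted p = 8.96e-07). Col9a3 had log2 fold changes of 0.10 ± 0.46 (adjusted p = 0.868) and 0.03 ± 0.46 (adjusted p = 0.962), and Col20a1 of 0.28 ± 0.31 (adjusted p = 0.483) and -0.68 ± 0.36 (adjusted p = 0.136). These chains did not pass the test with either hairpin. Col20a1 overlaps BX649560.1 on the same strand, which had 900 counts over the 9 libraries, so reads in the overlap may belong to either. Col9a2, Col14a1 and Col22a1 had at most 6 counts in a group.

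Transmembrane chains were low throughout. Col13a1, found at cell contacts and the neuromuscular junction, had 0.317, 0.295 and 0.312 CPM in SCR, 0.0999, 0.117 and 0 in shEya3 KD1 and 0.117, 0.0738 and 0.0472 in shEya3 KD2. Each hairpin library was below each SCR library, and Col13a1 fell by 1.97 ± 0.52 (adjusted p = 0.00553) and by 1.86 ± 0.51 (adjusted p = 0.00813). Col17a1, the hemidesmosome collagen of basal epithelial cells, had 0.712, 0.609 and 0.625 CPM in SCR, 0.374, 0.281 and 0.202 in shEya3 KD1 and 0.546, 0.480 and 0.425 in shEya3 KD2. It was below SCR in all hairpin libraries, yet only the change with shEya3 KD1 passed the test, at -1.16 ± 0.28 (adjusted p = 0.00255) against -0.41 ± 0.25 (adjusted p = 0.193) with shEya3 KD2. Col23a1 and Col25a1 of this class, the unclassified Col26a1 and the beaded filament relative Col28a1 had at most 10 counts in a group. Over all 15 chains too low to test, no group mean exceeded 0.201 CPM and no chain exceeded 32 counts in the 9 libraries.

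Around the level of 1 CPM in a group, above which every chain is given by library, Col5a3 was just inside with a highest group mean of 1.13 CPM and Col6a4 just outside with 0.921 CPM. Values by library were also given for Col6a4, Col4a4, Col11a1, Col13a1, Col15a1 and Col17a1, which lie under that level and were called. Within a group, the chains did not vary independently. Of the 18 chains of at least 1 CPM, 17 were highest in replicate 2 of shEya3 KD2, the shallowest library, and 14 were lowest in its replicate 3. In SCR, 14 were highest in replicate 2, and in shEya3 KD1, 11 were highest in replicate 1. Whether depth or another property of these libraries moved with the chains was not tested.

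The hairpins were then set against each other, which asks directly where the groups differed. With a single group of cells for each hairpin, the degree of knockdown, other effects of the hairpin and differences between the lines cannot be told apart. In shEya3 KD2 against shEya3 KD1, 7 of the 27 chains were higher and 11 lower, where 27% of all genes tested were called higher and 22.5% lower. The median log2 difference was -0.12 over the chains and 0.0030 over all genes. The widest differences were those of chains at low levels in shEya3 KD2: Col10a1 at -5.65 ± 0.66 (adjusted p = 5.34e-06), Col5a2 at -5.48 ± 0.19 (adjusted p = 3.12e-11), Col1a2 at -5.24 ± 0.25 (adjusted p = 2.56e-10) and Col12a1 at -5.17 ± 0.36 (adjusted p = 1.65e-08). The log2 difference was -2.76 ± 0.23 for Col6a1 and 2.39 ± 0.17 for Col6a5 (adjusted p = 3.87e-07 and 1.08e-06). Several chains that changed in the same direction with both hairpins differed in size. The rises of Col4a5, Col4a6 and Col8a1 were smaller in shEya3 KD2, with differences of -1.26 ± 0.072, -1.58 ± 0.18 and -0.25 ± 0.06 (adjusted p = 1.91e-09, 4.17e-06 and 0.003). Col16a1, Col1a1 and Col5a3 were higher in shEya3 KD2, by 1.98, 0.88 and 0.86, the last of these not without shEya3 KD1 replicate 2 (0.67, adjusted p = 0.0688) or with DESeq2 (adjusted p = 0.0502). The other chains called higher were Col6a6 (1.48), Col18a1 (0.61) and Col17a1 (0.75), and those called lower Col15a1 (-2.66), Col20a1 (-0.96) and Col11a2 (-0.83). The call of Col17a1 (adjusted p = 0.049) was lost with every library left out except shEya3 KD1 replicate 1 (adjusted p = 0.0508 to 0.171) and in each of the 5 other settings that kept it, the replicate block among them (adjusted p = 0.0520). That of Col20a1 (0.0356) was lost without any shEya3 KD1 replicate, without shEya3 KD2 replicate 2 or 3 (adjusted p = 0.0683 to 0.110), with no filter, with DESeq2 or with the replicate block (adjusted p = 0.0533). That of Col11a2 (0.0193) was lost without replicate 1 or 3 of either hairpin (adjusted p = 0.0661 to 0.0877). Col4a4 passed the threshold only without shEya3 KD1 replicate 1 (adjusted p = 0.0291), which leaves shEya3 KD1 without a count of it, and Col4a2 only without a filter (-0.24, adjusted p = 0.0161). For Col5a1, lower than SCR with both hairpins, the difference between hairpins was -0.12 ± 0.16 (adjusted p = 0.579).

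Promoter entries were found for 33 of the 42 chains, in 35 windows. GGGCGG, the core of the GC box bound by Sp factors, occurred on either strand in 22 of the 35 windows (62.9%) and in 32.7% of 32851 windows of all genes. The 22 include separate windows of the same gene, Col6a2, and the windows compared were not matched for GC content. CCAAT occurred in 34.3% of the collagen windows and 33.8% of all windows, and TATAAA in 14.3% and 12.4%. TGACTCA, the AP-1 element, matched the window of Col6a1 alone (2.86% against 4.46%). A match is a description of letters, and a window without a match says only that these letters are not in it.

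The genes that act on collagen were counted by the step they serve. Of all genes tested, 24.1% were called higher and 26.2% lower with shEya3 KD1, and 23.0% and 22.3% with shEya3 KD2, and no test set any of the 6 lists against other genes. Of 15 tested of 19 listed genes for modification and folding in the endoplasmic reticulum, 8 rose and 4 fell with shEya3 KD1 (median log2 fold change 0.31). With shEya3 KD2, 3 rose and 5 fell (median -0.048), and the 3 that rose lie near the share of all genes called higher. P3h3, of the prolyl 3-hydroxylase family, was at 4.32 ± 0.390 CPM in SCR, 18.9 ± 0.828 in shEya3 KD1 and 13.2 ± 1.14 in shEya3 KD2 (SD, n = 3), and rose by 2.13 and 1.60 on the log2 scale (adjusted p = 1.03e-10 and 1.16e-08). P3h2, the family member known to act on type IV collagen, had 1 count in SCR, 131 in shEya3 KD1 and 0 in shEya3 KD2. Its level in shEya3 KD1 was 159 times that in SCR with a 95% counting interval of 28.1 to 6344 (adjusted p = 2.11e-07). Serpinh1, the collagen chaperone Hsp47, stayed low, at 0.0846 ± 0.0219, 0.762 ± 0.145 and 1.02 ± 0.170 CPM, but rose with either hairpin (log2 fold change 3.14 ± 0.35 (adjusted p = 2.31e-06) and 3.55 ± 0.33 (adjusted p = 8.31e-07)). How reads that match several places were counted is not given, so the low levels of Serpinh1 and, among the markers, of Krt18 are uncertain. Tmem38b, an ion channel of the endoplasmic reticulum, went from 6.01 to 13.5 and 7.47 CPM and rose with either hairpin, and Fkbp14, a prolyl isomerase, fell with shEya3 KD2 (-0.68 ± 0.19 (adjusted p = 0.00942)). Fkbp14 overlaps Plekha8 on the opposite strand (8944 counts over all libraries), so reads in the overlap may belong to either. The count of 5 that fell with shEya3 KD2 was 3 without shEya3 KD2 replicate 1.

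For export from the endoplasmic reticulum, all 10 listed genes were tested, and 3 rose with shEya3 KD1 while 4 rose and 1 fell with shEya3 KD2 (medians 0.12 and 0.20), where 24.1% of all genes tested rose with shEya3 KD1 and 23.0% rose and 22.3% fell with shEya3 KD2. With shEya3 KD1, 0 fell by edgeR, by DESeq2 or at an unadjusted p under 0.05. Sec31a, an outer coat protein of the vesicles that carry procollagen, was at 87.6 ± 1.94 CPM in SCR, 192 ± 7.72 in shEya3 KD1 and 149.8 ± 9.20 in shEya3 KD2 and rose by 1.13 and 0.77 (adjusted p = 1.7e-09 and 3.06e-07). Its inner coat partner Sec24d rose by 0.43 and 0.31 (adjusted p = 0.000118 and 0.00259). Creb3l1, a transcription factor that drives collagen genes in bone, rose with shEya3 KD1 (1.30 ± 0.22 (adjusted p = 0.000191)), Ccdc88a rose with shEya3 KD2 (0.58 ± 0.082 (adjusted p = 4.87e-05)), and Sec13 fell with shEya3 KD2 (-0.43 ± 0.11 (adjusted p = 0.00639)).

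Of 6 tested of 11 listed processing genes, 1 rose and 4 fell with shEya3 KD1 and 5 fell with shEya3 KD2 (medians -0.59 and -0.29), where 26.2% and 22.3% of all genes tested fell. With shEya3 KD2, 0 rose by edgeR, by DESeq2 or at an unadjusted p under 0.05. Without SCR replicate 2 or shEya3 KD2 replicate 3, 1 rose with shEya3 KD2. Adamts14, which removes the amino propeptide of fibrillar procollagens, was at 48.0 ± 5.22 CPM in SCR, 10.5 ± 0.874 in shEya3 KD1 and 37.5 ± 2.69 in shEya3 KD2, and fell by 2.19 and 0.36 (adjusted p = 6.47e-11 and 0.00414). Mep1a, a metalloprotease able to cleave procollagen, fell by 3.06 and 1.69 from 1.66 CPM in SCR. Pcolce, an enhancer of propeptide removal with the highest CPM of the list, had 463 ± 13.4, 557 ± 36.3 and 396 ± 10.7 CPM, rose with shEya3 KD1 (0.27 ± 0.067 (adjusted p = 0.00369)) and fell with shEya3 KD2 (-0.22 ± 0.067 (adjusted p = 0.0132)). Its relative Pcolce2 fell with either (-0.50 and -0.60), and Furin, a protease that activates several of these enzymes, fell with shEya3 KD1 (-0.68 ± 0.092 (adjusted p = 1.84e-05)).

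Of 6 tested of 7 listed crosslinking genes, 1 rose and 5 fell with shEya3 KD1 and 2 rose and 4 fell with shEya3 KD2 (medians -1.12 and -0.71), beside the same 26.2% and 22.3% of all genes that fell. The 2 that rose with shEya3 KD2 were 1 without SCR replicate 1, SCR replicate 3, shEya3 KD2 replicate 1 or shEya3 KD2 replicate 2. Loxl4, a lysyl oxidase, was at 178 ± 1.13 CPM in SCR, 91.9 ± 8.21 in shEya3 KD1 and 86.4 ± 3.76 in shEya3 KD2 and fell by 0.95 and 1.04 (adjusted p = 2.98e-08 and 3.41e-08). Tgm2, a transglutaminase, had 27.4 ± 0.712, 4.45 ± 0.637 and 19.6 ± 1.27 CPM and fell by 2.61 and 0.48. Pxdn, the peroxidasin that links type IV molecules through sulfilimine bonds, had 142 ± 5.94, 123 ± 11.3 and 73.9 ± 2.74 CPM and fell by 0.20 and 0.94. Loxl1 fell with shEya3 KD1 and rose with shEya3 KD2 (-1.28 and 0.81), and Loxl3 rose with either (0.89 and 0.25). Tgm2 overlaps Rprd1b and Loxl3 overlaps Htra2 on the opposite strand (20331 and 43872 counts over all libraries). Reads in these overlaps may belong to either gene.

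Receptors were mixed: of 10 tested of 14 listed, 3 rose and 4 fell with shEya3 KD1, and 3 rose and 3 fell with shEya3 KD2 (medians -0.17 and 0.018), beside the 24.1% and 26.2%, and 23.0% and 22.3%, of all genes. Mrc2, which takes up collagen for degradation, had log2 fold changes of 6.13 and 4.18, and its relative Mrc1 of -4.29 and -1.46. Adgrg1, a receptor of type III collagen, was at 0.292 ± 0.129 CPM in SCR, 5.47 ± 1.67 in shEya3 KD1 and 0.479 ± 0.107 in shEya3 KD2 and rose with shEya3 KD1 (log2 fold change 4.21 ± 0.29 (adjusted p = 3.49e-08), and 0.66 ± 0.42 (adjusted p = 0.223) with shEya3 KD2). Adgrg6, a receptor of type IV collagen, fell with either hairpin, from 31.5 ± 2.21 CPM in SCR to 8.05 ± 0.765 and 10.1 ± 1.28 (-1.97 and -1.65). Adgrg6 overlaps the pseudogene Gm10335 on the opposite strand (15431 counts over all libraries), so reads in the overlap may belong to either. Cd93, a lectin-like receptor of endothelial and myeloid cells, fell by 3.93 and 0.43. Of 9 genes listed for the cleavage of collagen, 3 were tested: Mmp14, Mmp9 and Mmp1b. These fell with both hairpins, beside 26.2% and 22.3% of all genes. Of those too low to test, Mmp13 (8, 25 and 1 counts in SCR, shEya3 KD1 and shEya3 KD2) and Ctsk (6, 29 and 10) were higher in every shEya3 KD1 library than in SCR. Among the tested ones, Mmp14, the membrane-bound collagenase, went from 127 ± 7.69 CPM to 49.7 ± 6.63 and 86.0 ± 5.84 (log2 fold change -1.35 ± 0.09 (adjusted p = 9.44e-09) and -0.56 ± 0.088 (adjusted p = 0.000124)). Mmp9, a gelatinase, fell by 4.87 and 1.43, and Mmp1b had 180 counts in SCR and none with either hairpin, at least 49.3 times lower with shEya3 KD1 and 50.7 times lower with shEya3 KD2 at a floor of 3 counts over the group.

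**Figure D5:**
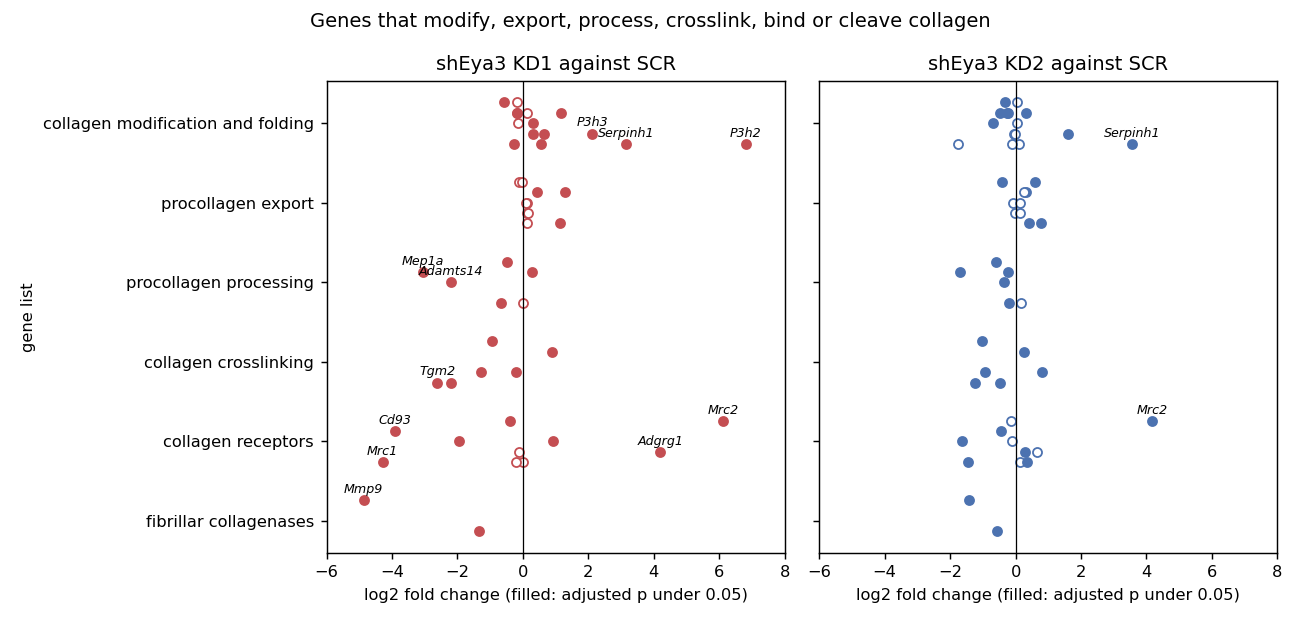
Log2 fold change against SCR (x axis) of each tested gene in the 6 lists (y axis) for shEya3 KD1 (left) and shEya3 KD2 (right), filled where the adjusted p is under 0.05. Mmp1b, without counts in either knockdown, is not drawn, and the genes named lie more than 2 log2 units from 0.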

How the data were processed

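Per the labels' protocols, RNA of 9 cultures of 66cl4 cells went through the NuGEN Universal Plus mRNA-Seq kit. The submitters' processing notes list FastQC, MultiQC, STAR and mm10, without versions. How reads were counted (tool, strand setting, reads that match several places) is not given in the sources used here. Raw read counts per gene symbol were deposited by the authors, and these counts were used unchanged. Groups and replicate numbers came from the sample titles.

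Gene positions and transcript lengths came from GENCODE M21 (all 42 chains matched) and promoters from RefSeq (GRCm38.p6). CPM is the count divided by the library total times its TMM factor, and CPM per kb uses the transcript with the longest coding sequence. All 9 libraries entered a single edgeR 4.0.16 quasi-likelihood fit in R 4.3.3 with the group as its only term, after filterByExpr. Robust estimation was used, with Benjamini-Hochberg adjustment over 15914 genes and a threshold of 0.05. Standard errors follow from the fold change and its F statistic. Intervals are exact binomial at 95% and, like the floor of 3 counts over a group, cover counting error only. Replicate libraries of a group differed beyond counting noise, with chi-square to degree of freedom ratios of 9.24 to 45.2.

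Chains of at least 1 CPM in a group are given by library. The rest are given by range and named where called, except that 6 called chains under that level are also given by library, a choice made after their values were seen. A further motif is not reported here. Of each list of genes that act on collagen, up to 5 called genes of at least 1 CPM with the largest changes were named. The members, lists and rules were chosen with earlier results of these data known. Marker lists of fibroblasts, epithelial cells, chondrocytes, osteoblasts, endothelial cells, macrophages and Schwann cells were also summed. The last 4 of these did not exceed 20.9, 4.35, 0.985 and 1.33 CPM, and chondrocyte markers, mostly Sox9, did not exceed 17.9. Alternatives were RLE size factors, DESeq2 1.42.0, other filters, only the groups compared, a replicate block, and each library left out in turn.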

Additional observations from a re-analysis of the deposited data

Results flagged for a closer look

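Col6a1 and Col6a5 stood out because each was called in opposite directions with the hairpins, and the difference between the hairpins itself passed the test. In shEya3 KD2 against shEya3 KD1, the log2 difference was -2.76 for Col6a1 and 2.39 for Col6a5 (edgeR quasi-likelihood test, adjusted p = 3.87e-07 and 1.08e-06). For Col6a1 the log2 fold changes against SCR were 1.50 with shEya3 KD1 and -1.26 with shEya3 KD2. For Col6a5 they were -1.93 and 0.46, and the rise with shEya3 KD2 was called in some settings only. The chains were called in opposite directions to each other with each hairpin, on different chromosomes (10 and 9).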

How the results depend on the processing

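Low counts limit which chains can be tested, and requiring at least 5 CPM in 3 libraries leaves few chains to test. With that filter 4 rose and 2 fell with shEya3 KD1, and 2 were higher and 4 lower in shEya3 KD2 against shEya3 KD1. With shEya3 KD2, 2 fell, against 10 in the main fit. The number that rose with shEya3 KD2 stayed within 1.5 times the 5 of the main fit. Most of the chains that fell with shEya3 KD2 did not reach this filter. Under that filter 1 receptor rose with shEya3 KD1. Without any filter 2 genes of the list for collagen cleavage and 2 processing genes rose with shEya3 KD1. DESeq2 called 1 gene of the cleavage list higher there. With each library left out in turn, crosslinking genes that rose with shEya3 KD2 numbered 1 to 2, modification and folding genes that fell with it 3 to 6, and processing genes that rose with it 0 to 1. The summed collagen level and all other counts of calls stayed within 1.5 times or within the spread between replicates.

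Directions turned only for values that did not pass the test. Col7a1 with shEya3 KD2 was 0.0050 without a filter. On leaving out libraries, log2 fold changes with shEya3 KD1 ran from -0.094 to 0.23 for Col7a1 and from -0.026 to 0.079 for Col18a1. With shEya3 KD2 they ran from -0.16 to 0.17 for Col7a1 and from -0.43 to 0.14 for Col11a2. Between the hairpins they ran from -0.14 to 0.083 for Col4a1, from -0.24 to 0.026 for Col5a1, from -0.19 to 0.031 for Col7a1 and from -0.38 to 0.61 for Col13a1. For these the cause was not tested. Col4a4 with shEya3 KD1 was -7.63 without shEya3 KD1 replicate 1, which held all its counts in that group, so this fitted value is no bound.

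Same-numbered libraries of different groups had correlations of -0.11 to 0.20, and differently numbered libraries of -0.24 to 0.17. No pairing by replicate number was seen, but these few values cannot exclude it. With the replicate block, Col7a1 with shEya3 KD2 was 0.00074, and Col17a1 and Col20a1 lost their calls between the hairpins (0.74, adjusted p = 0.0520, and -0.97, adjusted p = 0.0533). No other chain changed its call under the block. Library totals ran from 27758862 to 52691960 counts, and chains under 1 CPM rest on few counts per group.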
